A study of Mus musculus with 24 samples.

Results

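The livers of mice that lack carnitine palmitoyltransferase 2 (Cpt2) in hepatocytes were compared with floxed control livers by RNA sequencing after a fast of 24 h. All expressed genes were taken as members of the comparison. Of the 54532 genes in the count table, which covers the 24 libraries of the series, 13270 passed a filter on low counts in these 8 libraries and were tested. The mutant group, Cpt2 L-/-, carries a floxed Cpt2 gene and Cre recombinase driven by the albumin promoter, and holds 4 livers. The control group, ff;ff, carries floxed alleles of both Rab30 and Cpt2 without Cre, and also holds 4 livers. All were males on a C57/BL6J background. The ff;ff animals are littermates of Rab30 and Cpt2 double knockout (DKO) mice, not of the Cpt2 L-/- mice, so loss of Cpt2, presence of Cre, the floxed Rab30 allele and colony cannot be told apart in this comparison. Albumin-driven Cre acts in hepatocytes, and other liver cells keep Cpt2. Each library came from 1 liver, so p-values measure the spread between livers of a group.

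Cpt2 sits in the inner mitochondrial membrane, where it turns acylcarnitines back into acyl-CoAs and so lets long-chain fatty acids enter β-oxidation. In a fast, fatty acids released from adipose tissue reach the liver and are oxidised to acetyl-CoA and ketone bodies, which also provides the energy for gluconeogenesis. The same fatty acids are ligands of Pparα, the nuclear receptor that turns on the genes of fatty acid uptake, activation and oxidation. Peroxisomes and the ω-hydroxylating cytochromes P450 hold additional routes for fatty acid breakdown that do not need Cpt2.

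Values are given as counts per 1000000 counts of a library (CPM), scaled by TMM factors, and are listed for livers 1 to 4 of a group in that order. A gene was called higher or lower in Cpt2 L-/- livers when its adjusted p was under 0.05 by edgeR's quasi-likelihood test and its change at least 1.2-fold, with Benjamini-Hochberg adjustment over all 13270 genes. Errors after ± are standard errors for log2 fold changes and standard deviations for levels (n = 4 livers per group). Genes named by size of fold change were picked among those without overlap between the groups, so their lack of overlap is no added result. The libraries held 13839554 to 14261738 counts in the Cpt2 L-/- group and 13230854 to 17508850 in the ff;ff group.

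The deleted Cpt2 exon was not given in the sources used here, and counts over the whole gene did not show the deletion. Cpt2 stood at 97.9, 119, 167 and 132 CPM in the livers labelled Cpt2 L-/- and at 132, 144, 137 and 130.1 CPM in ff;ff livers (log2 fold change -0.07 ± 0.16, adjusted p = 0.788). The ranges overlapped. In DKO livers, which also lack Cpt2, it stood at 99.8, 97.4, 107 and 120 CPM against 275, 217, 223 and 172 CPM in Rab30 L-/- livers, scaled over those 16 libraries, and fell with a log2 fold change of -1.07 (adjusted p = 4.5e-04). Level of the gene therefore gave no check of the livers labelled Cpt2 L-/-, and every direction below is that of the livers so labelled. Rab30, the small GTPase that the series targets with its other alleles, rose in the same livers from 26.6, 46.2, 46.1 and 31.6 CPM to 125, 132, 188 and 153 CPM (log2 fold change 1.99 ± 0.21, adjusted p = 2.7e-05).

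The liver identity of the samples was plain in both groups, with Alb, the serum albumin gene, the source of 3.16 to 3.94% of all counts in Cpt2 L-/- livers and of 6.99 to 8.16% in ff;ff livers. Since counts are shares of a library, a loss at a few abundant genes raises all others, and the TMM factors set the median gene at a log2 fold change of -0.003. In bulk liver, fewer cells of a type and less RNA per cell cannot be told apart.

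Of the 13270 genes tested, 3155 were called (23.8%), 1576 higher (11.9%) and 1579 lower (11.9%) in Cpt2 L-/- livers. A change of at least 2-fold was called at 702 higher and 821 lower genes, and a change of at least 16-fold at 46 higher and 35 lower. The counts in the 2 directions were alike, but their place in the range of expression was not. Among the 119 genes with a mean level of 1000 CPM or more, 11 were higher and 59 lower (58.8% called). Between 100 and 1000 CPM, 199 were higher and 339 lower of 1317. Between 5 and 20 CPM the order turned, with 468 higher and 338 lower of 3670. The 119 most abundant genes took 46.7% of all counts in ff;ff livers and 40.0% in Cpt2 L-/- livers.

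**Figure D1:**
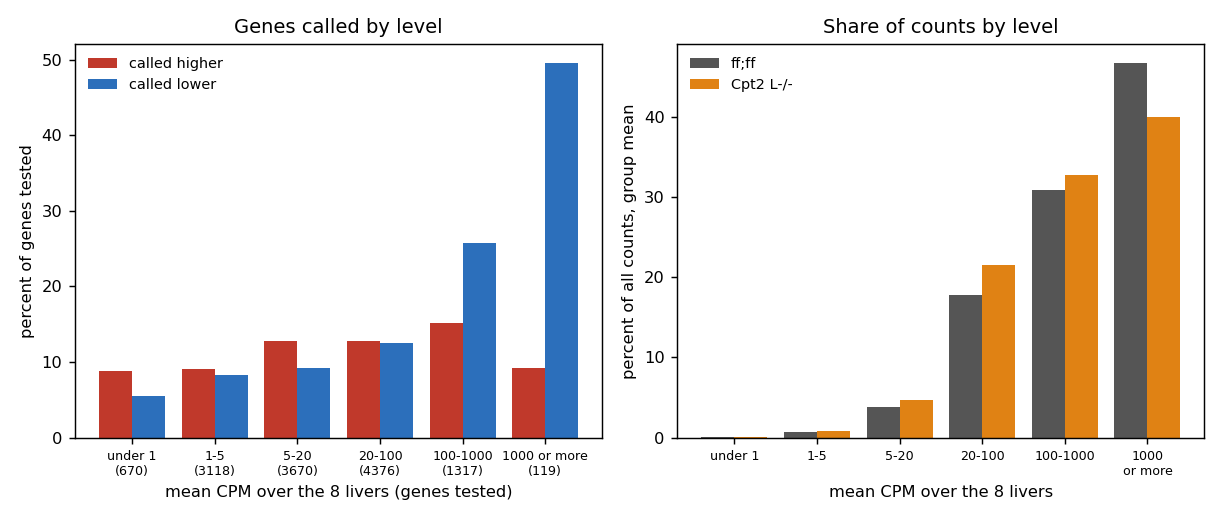
Called genes by level of expression: the x axis bins the tested genes by their mean CPM over the 8 livers, and the bars give the percent of genes in each bin called higher or lower (left) and the share of all counts that each bin took in either group (right). Lower genes outnumbered higher ones 59 to 11 in the bin of 1000 CPM or more, and higher genes outnumbered lower ones 468 to 338 in the bin from 5 to 20 CPM.

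The share of genes called differed with the kind of transcript. Of 11894 protein-coding genes 24.0% were called, 1465 higher and 1387 lower. Long intergenic RNAs were called more often in the lower direction, 33 higher and 57 lower of 272. Antisense RNAs were called at 17 higher and 37 lower of 241, and pseudogenes at 34 higher and 59 lower of 515. Whether counting used strand was not given in the sources used here, so reads of antisense genes and of their partners may have been mixed. Along the chromosomes, 55 tested genes lay within 5 Mb of Cpt2 on chromosome 4, and 10 of them were higher and 6 lower (29.1%). Over 220 windows the median share called was 23.65%, from 0 to 44.4%.

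**Figure D2:**
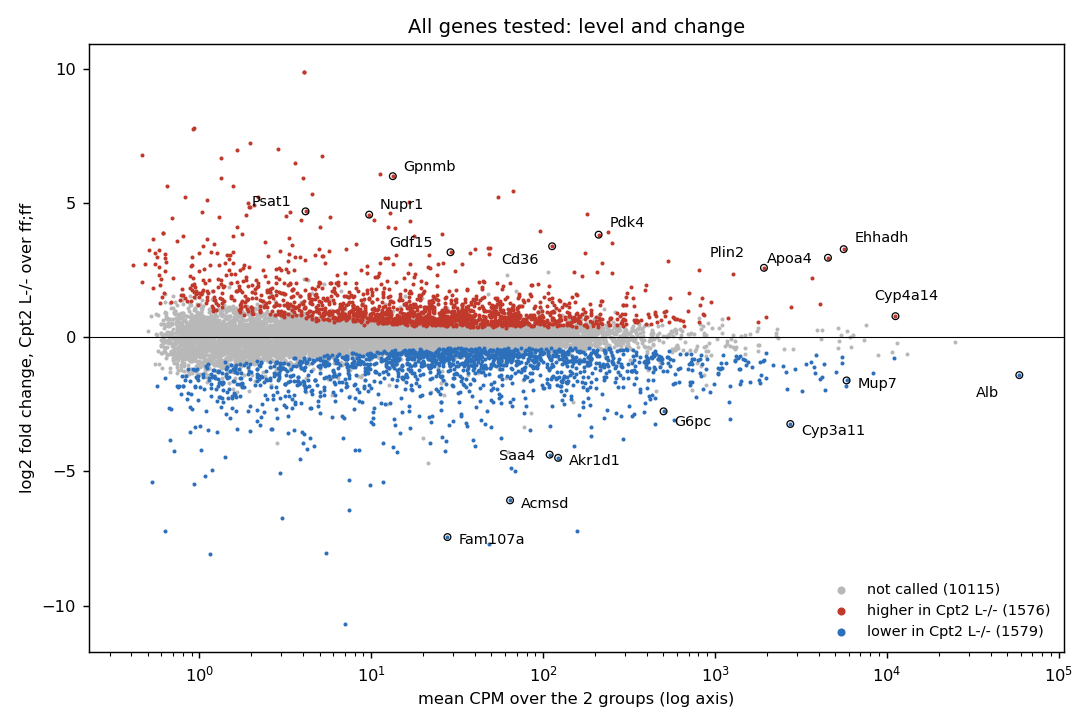
All 13270 tested genes, with mean level on the x axis (CPM, log axis) and log2 fold change of Cpt2 L-/- over ff;ff livers on the y axis, called genes in colour. Called genes run along the whole range of levels, with Alb below the zero line at -1.41 and Ehhadh above it at 3.29.

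Promoter sequences were read for the genes of 3 transcription factor programs, since their lists differed in the counts of genes called. For each gene, 250 bases before and 50 bases after the RefSeq start were searched on both strands. The searched patterns were TGATGNAA, a composite C/EBP-ATF site of the type bound by Atf4 with its partners, 2 copies of AGGNCA with 1 base between them, the direct repeat bound by Pparα with its partner RXR, and TCACNCCAC, the sterol element bound by SREBP proteins. The first occurred in 278 of 9801 tested genes with a promoter entry (2.84%) and in 7 of 25 members of the Atf4 list. The second occurred in 38 of 9801 (0.39%) and in 1 of 26 members of the Pparα list. The third occurred in 148 of 9801 (1.51%) and in 1 of 17 members of the cholesterol list. A match is a string of letters in this window and not a measured binding site, and distal elements were not searched.

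The promoters of Nupr1, Atf3, Trib3 and Fabp1 are shown as called genes that carried the first or the second pattern, at most 3 for each by size of change. Gars, the glycyl-tRNA synthetase, also carried the first and was called at a log2 fold change of 0.55, with groups that overlapped, and its promoter is not shown. Atf3 and Gars were picked for their match after their values were seen. They are RefSeq sequences of assembly GRCm38.p6, 5′ to 3′ on the strand of the gene, with the match, which reads on the opposite strand, in capitals.
Nupr1 (chr7:126625421-126625720, minus strand, match at -110 from the start): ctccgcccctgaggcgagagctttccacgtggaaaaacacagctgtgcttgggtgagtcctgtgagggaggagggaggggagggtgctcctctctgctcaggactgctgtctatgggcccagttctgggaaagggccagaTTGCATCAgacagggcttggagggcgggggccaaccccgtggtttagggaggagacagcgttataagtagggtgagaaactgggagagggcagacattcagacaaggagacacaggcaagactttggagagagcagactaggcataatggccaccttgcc
Atf3 (chr1:191183284-191183583, minus strand, match at -110): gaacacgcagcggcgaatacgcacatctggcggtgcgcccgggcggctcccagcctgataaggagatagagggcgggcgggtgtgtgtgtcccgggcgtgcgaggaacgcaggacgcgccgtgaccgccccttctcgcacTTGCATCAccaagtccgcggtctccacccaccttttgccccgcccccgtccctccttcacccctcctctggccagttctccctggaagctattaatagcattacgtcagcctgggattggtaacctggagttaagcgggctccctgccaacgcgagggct
Trib3 (chr2:152344011-152344310, minus strand, match at 15): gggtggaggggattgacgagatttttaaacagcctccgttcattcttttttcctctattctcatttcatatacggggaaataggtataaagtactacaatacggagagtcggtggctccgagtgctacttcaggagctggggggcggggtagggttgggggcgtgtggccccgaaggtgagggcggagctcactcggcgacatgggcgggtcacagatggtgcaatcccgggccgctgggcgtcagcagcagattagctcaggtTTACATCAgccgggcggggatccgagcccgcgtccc
Fabp1 (chr6:71199629-71199928, plus strand, match at -67, direct repeat): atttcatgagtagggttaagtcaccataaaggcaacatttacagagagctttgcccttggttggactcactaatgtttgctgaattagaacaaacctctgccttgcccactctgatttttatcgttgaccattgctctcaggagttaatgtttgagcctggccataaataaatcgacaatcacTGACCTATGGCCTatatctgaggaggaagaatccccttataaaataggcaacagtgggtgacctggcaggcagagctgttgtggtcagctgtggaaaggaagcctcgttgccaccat

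Most Pparα target genes were called higher, by unequal amounts. Of 33 members tested, 23 were higher and 0 lower, with a median log2 fold change of 0.90. The members of this and the other lists were chosen with earlier results of these data known. Ehhadh, the bifunctional enzyme of peroxisomal β-oxidation, stood at 10610, 8494, 9134 and 12340 CPM in the Cpt2 L-/- livers and 1030, 1407, 750.4 and 966 CPM in the ff;ff livers (log2 fold change 3.29 ± 0.23, adjusted p = 1.6e-06). The lowest mutant liver was above the highest control by a wide margin. Acot2, a mitochondrial acyl-CoA thioesterase that frees fatty acids from CoA, stood at 218, 141, 141 and 220.1 CPM in the Cpt2 L-/- livers and 4.13, 21.3, 8.64 and 11.5 CPM in the ff;ff livers (log2 fold change 3.97 ± 0.45, adjusted p = 2.8e-04). Its groups were far apart as well. Acot1, its cytosolic neighbour, rose by a log2 fold change of 2.85 ± 0.32. The 2 genes are close copies of each other, and reads shared between them may have been split.

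Several members that the fasting response is known for were not called. Cyp4a10, an ω-hydroxylase, had a log2 fold change of 0.35 ± 0.19 (adjusted p = 0.206), and its neighbour Cyp4a14 was called at a log2 fold change of 0.79 ± 0.17. The call at Cyp4a14 was lost when the spread was estimated from all 24 libraries of the series. Angptl4, a secreted inhibitor of lipoprotein lipase, stood at 278, 264, 269 and 298 CPM in the Cpt2 L-/- livers and 229, 428, 475 and 366 CPM in the ff;ff livers (log2 fold change -0.43 ± 0.20, adjusted p = 0.135). The range of the mutant livers lay inside that of the controls, and the gene was called lower at -0.61 without ff;ff liver 1. Creb3l3, Plin5 and Acadm had log2 fold changes of 0.14, 0.11 and 0.12 and were not called. Ppara itself had a log2 fold change of 0.73 ± 0.27 (adjusted p = 0.0691), and it was called at 0.92 without Cpt2 L-/- liver 3.

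Genes of mitochondrial fatty acid oxidation, the pathway that Cpt2 feeds, were called in the higher direction. Of 22 tested, 13 were higher and 0 lower (median 0.54). Hadha, a subunit of the trifunctional protein, went from 379, 577, 456 and 448 CPM to 956, 846, 827 and 1051 CPM (log2 fold change 0.98 ± 0.17, adjusted p = 9.0e-04). Cpt1a, the outer membrane transferase one step before Cpt2, was higher by a log2 fold change of 0.72 ± 0.18. Crat, which trades acetyl groups between CoA and carnitine, was higher by a log2 fold change of 1.34 ± 0.20, and Slc22a5, the carnitine importer, by 0.90 ± 0.15. Acadl and Etfdh, an acyl-CoA dehydrogenase and the enzyme that passes its electrons on, were higher by log2 fold changes of 0.85 and 0.66.

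In the peroxisome list 9 of 22 genes were higher and 4 lower. Acaa1b, a thiolase, rose by a log2 fold change of 2.22 ± 0.24. Pex11a, a peroxisome division factor, rose from 131, 255, 156 and 173 CPM to 612, 505, 612 and 704 CPM (log2 fold change 1.77 ± 0.21, adjusted p = 6.1e-05). Among import and membrane assembly genes, 2 were higher and 2 lower of 17 (23.5% called, against 23.8% of all genes tested). Pex19 and Pex16 were higher by log2 fold changes of 0.83 and 0.63, and Pxmp2, a peroxisomal membrane channel, was lower at a log2 fold change of -1.03.

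The ω-hydroxylation list was mixed, with 2 higher and 3 lower of 11. Aldh3a2, the fatty aldehyde dehydrogenase that completes this route, stood at 2086, 2044, 2129 and 2244 CPM in the Cpt2 L-/- livers and 378, 611, 276 and 406 CPM in the ff;ff livers (log2 fold change 2.35 ± 0.22, adjusted p = 1.4e-05). Cyp4f14 and Cyp4f15, ω-hydroxylases of another subfamily, fell at log2 fold changes of -2.30 ± 0.18 and -1.48 ± 0.17. Thioesterases were higher at 6 and lower at 2 of 13, among them Acot9, a mitochondrial member, at 2.39 ± 0.28.

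**Figure D3:**
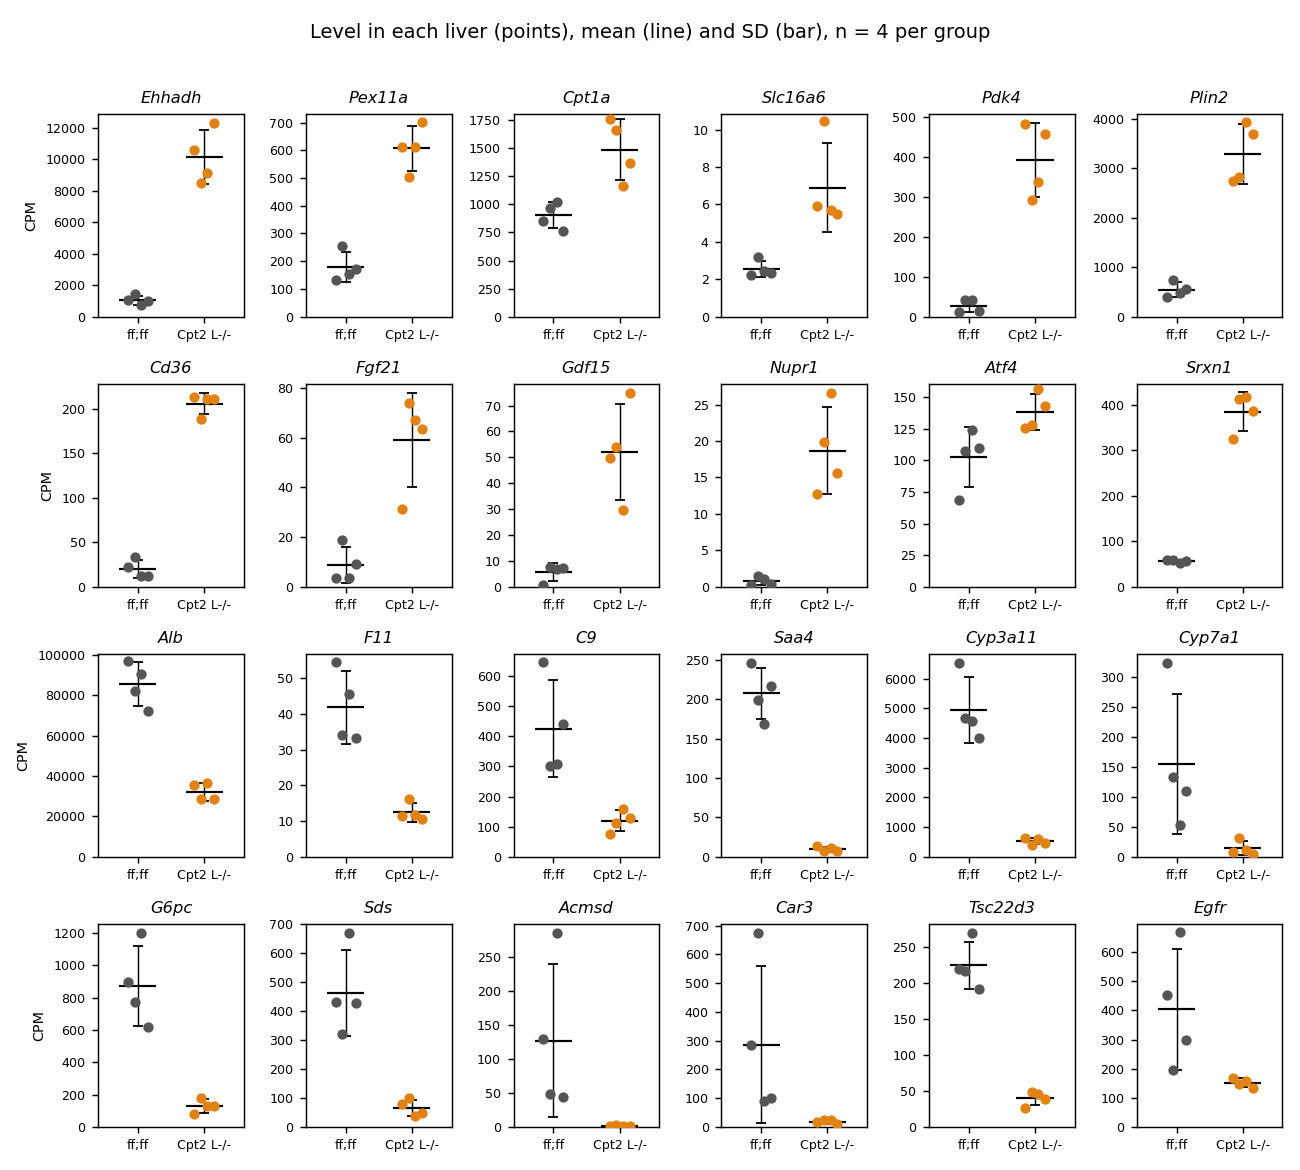
Levels of 24 genes in each of the 8 livers (y axis, CPM from 0; points are livers, lines the group means, bars the SD, n = 4 per group). The Cpt2 L-/- points lie above all ff;ff points for Ehhadh, Pdk4, Plin2, Cd36, Fgf21 and Gdf15, and below them for Alb, Saa4, Cyp3a11, Sds and Tsc22d3.

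Ketone body genes rose in part. Of 8 tested, 3 were higher, or 5 without ff;ff liver 2. Slc16a6, the exporter of ketone bodies, stood at 5.92, 10.4, 5.69 and 5.51 CPM in Cpt2 L-/- and 2.25, 3.18, 2.45 and 2.32 CPM in ff;ff livers (log2 fold change 1.43 ± 0.27, adjusted p = 0.00187). Bdh1, which reduces acetoacetate, had a log2 fold change of 0.84 ± 0.30 (adjusted p = 0.063), and was called without ff;ff liver 2 (0.997) or 3 (0.58).

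Pdk4, a kinase that shuts off pyruvate dehydrogenase, was among the most strongly raised enzymes. It stood at 483, 292, 336 and 458 CPM in the Cpt2 L-/- livers and 11.3, 41.6, 42.2 and 15.1 CPM in the ff;ff livers (log2 fold change 3.83 ± 0.47, adjusted p = 4.2e-04), and every mutant liver was above every control. The related kinase Pdk2 and the phosphatase Pdp2, which have opposite actions on the complex, were both called lower at log2 fold changes of -0.49 and -0.48, and both calls were fragile. That of Pdk2 was lost without ff;ff liver 2, 3 or 4 (-0.36 to -0.53) or Cpt2 L-/- liver 2, 3 or 4 (-0.41 to -0.52), and that of Pdp2 without ff;ff liver 2 (-0.45) or Cpt2 L-/- liver 1, 2 or 3 (-0.43 to -0.50) and without the filter on low counts. Pdha1, the catalytic subunit, was at a log2 fold change of 0.13.

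Secreted fasting signals differed in direction, with 3 higher and 5 lower of 21, or 5 and 8 without ff;ff liver 3. Fgf21, the hormone of fasting and mitochondrial stress, stood at 31.2, 74.01, 67.3 and 63.3 CPM in the Cpt2 L-/- livers and 3.596, 18.8, 3.53 and 9.27 CPM in the ff;ff livers (log2 fold change 2.73 ± 0.57, adjusted p = 0.0108). Liver 2 was the highest control, and without it the log2 fold change was 3.41. Gdf15, a stress hormone that lowers food intake, stood at 49.8, 54.1, 29.7 and 74.8 CPM in the Cpt2 L-/- livers and 0.719, 7.704, 6.84 and 7.402 CPM in the ff;ff livers (log2 fold change 3.17 ± 0.56, adjusted p = 0.00439), again without overlap. Enho, which encodes adropin, fell from 31.3, 17.3, 19.2 and 39.8 CPM to 1.91, 4.001, 1.49 and 1.73 CPM (log2 fold change -3.55 ± 0.36, adjusted p = 4.0e-05). Igfbp1, a binding protein of insulin-like growth factors, stood at 679.9, 505, 506 and 447 CPM in the Cpt2 L-/- livers and 211, 357, 3792 and 118 CPM in the ff;ff livers and was not called (log2 fold change -1.07 ± 1.13, adjusted p = 0.553). One control liver, the third, set its sign, since without that liver the log2 fold change was 1.22.

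Genes of lipid droplets, where hepatocytes store triglyceride, were called in 1 direction. Of 18 tested, 10 were higher and 0 lower (median 0.75). Plin2, the main coat protein of hepatocyte lipid droplets, stood at 2740, 2821, 3934 and 3699 CPM in the Cpt2 L-/- livers and 399, 749, 485 and 554 CPM in the ff;ff livers (log2 fold change 2.59 ± 0.22, adjusted p = 7.0e-06). Cidec, which promotes fusion of droplets, stood at 344, 455, 507 and 529 CPM in the Cpt2 L-/- livers and 26.97, 56.2, 50.8 and 26.3 CPM in the ff;ff livers (log2 fold change 3.52 ± 0.28, adjusted p = 4.6e-06). The groups were apart at both. Plin4, a further coat protein, rose by a log2 fold change of 2.27 ± 0.51. The lipase Pnpla2 had a log2 fold change of 0.66 ± 0.25 (adjusted p = 0.0711), and was called at 0.98 without ff;ff liver 3. Its inhibitor G0s2 was at a log2 fold change of -0.58 ± 0.86 (adjusted p = 0.682).

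Genes of triglyceride synthesis and of VLDL assembly were split, 5 higher and 4 lower of 20. The higher count was 8 without ff;ff liver 3 and in limma-voom, and 3 with at least 10 counts in every library. Mttp, which loads lipid onto apolipoprotein B, went from 351, 371, 376 and 295 CPM to 635, 675, 678 and 745 CPM (log2 fold change 0.97 ± 0.14, adjusted p = 3.4e-04). Gpat3, an acyltransferase of the first step, rose by a log2 fold change of 1.58 ± 0.14. Lpin1, which makes diacylglycerol and also acts with Pparα, had 183, 176, 96.2 and 166 CPM in the Cpt2 L-/- livers and 223, 572, 1700 and 445 CPM in the ff;ff livers (log2 fold change -2.24 ± 0.61, adjusted p = 0.0312). Liver 3 of the controls was the highest, the log2 fold change was -1.41 without it, and the call was lost without ff;ff liver 2 (-2.35) or any 1 of the Cpt2 L-/- livers (-2.08 to -2.33) and without the filter on low counts. Tm6sf2, which helps to lipidate VLDL, was lower at a log2 fold change of -1.01 ± 0.21. Dgat1 and Dgat2, which make triglyceride, were at log2 fold changes of 0.31 and -0.18 and not called, though Dgat1 was called at 0.49 without ff;ff liver 3.

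Fatty acid uptake genes held large changes, 8 higher and 1 lower of 15 (median 1.23). Cd36, the fatty acid translocase, stood at 213, 188, 211 and 211 CPM in the Cpt2 L-/- livers and 21.9, 32.8, 11.4 and 11.9 CPM in the ff;ff livers (log2 fold change 3.40 ± 0.31, adjusted p = 2.4e-05). There was no overlap. Fabp2, the intestinal-type binding protein, rose by a log2 fold change of 1.63 ± 0.27. Fabp1, the liver-type protein whose promoter is shown above, stood at 1065, 764, 1839 and 1701 CPM in the Cpt2 L-/- livers and 401, 744, 224 and 797 CPM in the ff;ff livers (log2 fold change 1.31 ± 0.41, adjusted p = 0.0455). The groups overlapped. That call was fragile, being lost without ff;ff liver 1 (1.19) and without Cpt2 L-/- livers 1 (1.40), 3 (1.11) or 4 (1.18), and in limma-voom, in the 24-library fit and without the filter on low counts. Vldlr, a lipoprotein receptor, had a log2 fold change of 1.38 ± 0.49 (adjusted p = 0.067) and was called at 2.19 without ff;ff liver 2.

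Of 21 genes of de novo lipogenesis, 3 were higher and 9 lower (median -0.59). Fasn, the fatty acid synthase, stood at 41.4, 44.01, 35.5 and 51.4 CPM in the Cpt2 L-/- livers and 51.1, 159, 128 and 80.7 CPM in the ff;ff livers (log2 fold change -1.28 ± 0.30, adjusted p = 0.00873), with overlap between the groups. Thrsp, a lipogenic nuclear protein, and Khk, the kinase that traps fructose, fell at log2 fold changes of -2.78 ± 0.32 and -1.64 ± 0.17. Srebf1, the transcription factor of lipogenesis, fell at a log2 fold change of -1.02 ± 0.18, and Mlxipl, the carbohydrate-responsive factor, was called at a log2 fold change of -0.67 ± 0.19, a call lost without ff;ff liver 4 (-0.54) or Cpt2 L-/- liver 2 (-0.59) or 3 (-0.60). Scd1, the desaturase, varied within groups, with 186, 118, 862 and 711 CPM in the Cpt2 L-/- livers and 1428, 795, 997 and 1808 CPM in the ff;ff livers (log2 fold change -1.42 ± 0.66, adjusted p = 0.167). Elovl5, an elongase of polyunsaturated fatty acids, went the other way, at 1.65 ± 0.20.

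In cholesterol synthesis and uptake, 0 genes were higher and 6 lower of 25. In this list 24.0% were called, against 23.8% of all genes tested, of which 11.9% were called lower. Ebp, an enzyme of the last steps, fell at a log2 fold change of -1.20 ± 0.14, and Insig1, which holds SREBP proteins in the ER, at -1.26 ± 0.24. Sqle, the squalene epoxidase, was at a log2 fold change of 0.27 and was not called, though it was called at 1.03 without ff;ff liver 2.

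Of 21 bile acid genes, 2 were higher and 13 lower (median -0.84). Akr1d1, the reductase that shapes the steroid ring of bile acids, stood at 14.5, 14.2, 7.05 and 5.77 CPM in the Cpt2 L-/- livers and 283, 239, 203 and 209 CPM in the ff;ff livers (log2 fold change -4.49 ± 0.31, adjusted p = 2.3e-06). Abcb11, the bile salt export pump, stood at 74.1, 43.2, 38.9 and 37.6 CPM in the Cpt2 L-/- livers and 262, 214, 352 and 333 CPM in the ff;ff livers (log2 fold change -2.58 ± 0.24, adjusted p = 1.6e-05). Nr0b2, the repressor SHP that bile acid signalling induces, stood at 2.43, 0.903, 1.23 and 1.15 CPM in the Cpt2 L-/- livers and 9.08, 13.4, 41.6 and 23.8 CPM in the ff;ff livers (log2 fold change -3.94 ± 0.53, adjusted p = 5.1e-04). None of these overlapped between groups. Cyp7a1, the rate-limiting enzyme of bile acid synthesis, was called lower at a log2 fold change of -3.46 ± 0.79, with 7.89, 31.4, 11.6 and 5.06 CPM in the Cpt2 L-/- livers and 322, 132, 53.2 and 109.7 CPM in the ff;ff livers. Its value was -2.81 without ff;ff liver 1 and -4.23 without Cpt2 L-/- liver 2, and the call was lost without Cpt2 L-/- liver 1 (-3.26) or 3 (-3.38). Nr1h4, the bile acid receptor FXR, was at a log2 fold change of -0.10 ± 0.15, and Cyp8b1, which sets the share of cholic acid, at 0.32 ± 0.21. Cyp8b1 was called at 0.60 without ff;ff liver 2.

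Among apolipoproteins and lipoprotein enzymes, 2 were higher and 9 lower of 21. Apoa4, a secreted apolipoprotein of triglyceride-rich particles, was 1 of the higher members and stood at 6681, 7810, 8831 and 8822 CPM in the Cpt2 L-/- livers and 502, 1375, 1843 and 386 CPM in the ff;ff livers (log2 fold change 2.97 ± 0.47, adjusted p = 0.00145). Apob and Apoe were at log2 fold changes of -0.37 ± 0.19 and -0.60 ± 0.23 and not called, though Apoe was called at -0.80 without ff;ff liver 1. Scarb1, the HDL receptor, and Lipc, hepatic lipase, fell at log2 fold changes of -1.47 ± 0.19 and -1.15 ± 0.14.

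Genes of gluconeogenesis and of entry into glycolysis fell in part. Of 20 tested, 2 were higher and 9 lower (median -0.56). G6pc, the phosphatase that releases glucose, stood at 82.04, 181, 126 and 127 CPM in the Cpt2 L-/- livers and 898, 774, 1201 and 619.8 CPM in the ff;ff livers (log2 fold change -2.76 ± 0.26, adjusted p = 1.6e-05). Fbp1, the bisphosphatase upstream of it, stood at 335, 316, 422 and 323 CPM in the Cpt2 L-/- livers and 1257, 1098, 974 and 1132 CPM in the ff;ff livers (log2 fold change -1.68 ± 0.16, adjusted p = 1.4e-05). Pck1, the carboxykinase that starts the pathway, stood at 5490, 4250, 4238 and 3808 CPM in the Cpt2 L-/- livers and 4920, 5998, 7399 and 5254 CPM in the ff;ff livers (log2 fold change -0.41 ± 0.19, adjusted p = 0.139). Thus G6pc and Fbp1 had no overlap between groups and Pck1 was not called. Pcx, which makes oxaloacetate, and the coactivator gene Ppargc1a were at log2 fold changes of 0.10 and -0.70 and not called either. In glycogen metabolism 2 genes were higher and 4 lower of 13. Ppp1r3b and Ppp1r3c, subunits that bring protein phosphatase 1 to glycogen, fell at log2 fold changes of -3.31 ± 0.23 and -3.28 ± 0.41. Gys2, the liver glycogen synthase, was at a log2 fold change of 0.48 ± 0.21.

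The urea cycle and amino acid catabolism held the largest number of lower genes of the lists described, 30 of 38, with 0 higher and a median of -1.01. Sds, the serine dehydratase, stood at 78.4, 99.2, 36.9 and 48.96 CPM in the Cpt2 L-/- livers and 429.6, 320.4, 669.9 and 426 CPM in the ff;ff livers (log2 fold change -2.81 ± 0.33, adjusted p = 1.2e-04). Ass1, the argininosuccinate synthase, stood at 1277, 1401, 1161 and 1234 CPM in the Cpt2 L-/- livers and 5261, 4841, 5653 and 4787 CPM in the ff;ff livers (log2 fold change -2.02 ± 0.16, adjusted p = 3.1e-06). Both had their highest mutant liver under their lowest control. Otc, Gls2, Hal and the aminotransferases Tat and Got1 fell at log2 fold changes of -2.09, -2.05, -1.88, -1.95 and -1.72. Cps1, which starts the urea cycle, was at a log2 fold change of -0.66 ± 0.25 (adjusted p = 0.0745), and was called at -0.82 without ff;ff liver 4.

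Tryptophan and NAD metabolism was lower at 11 of 17 genes and higher at 1. Acmsd, the enzyme that draws tryptophan carbon away from NAD synthesis, stood at 1.84, 2.39, 1.49 and 1.73 CPM in the Cpt2 L-/- livers and 129, 48.7, 285 and 43.4 CPM in the ff;ff livers (log2 fold change -6.08 ± 0.77, adjusted p = 0.00106). Its value was -5.30 without ff;ff liver 3. Nnmt, which methylates nicotinamide, and Ido2, a tryptophan dioxygenase, fell at log2 fold changes of -2.997 ± 0.47 and -3.08 ± 0.31. In methionine and one-carbon metabolism 2 genes were higher and 13 lower of 19. Gnmt, the buffer of S-adenosylmethionine, fell from 1775, 2026, 2276 and 1979 CPM to 333, 458, 443 and 290.3 CPM (log2 fold change -2.40 ± 0.19, adjusted p = 3.3e-06), and Mat1a, which makes S-adenosylmethionine, at -0.78 ± 0.20.

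**Figure D4:**
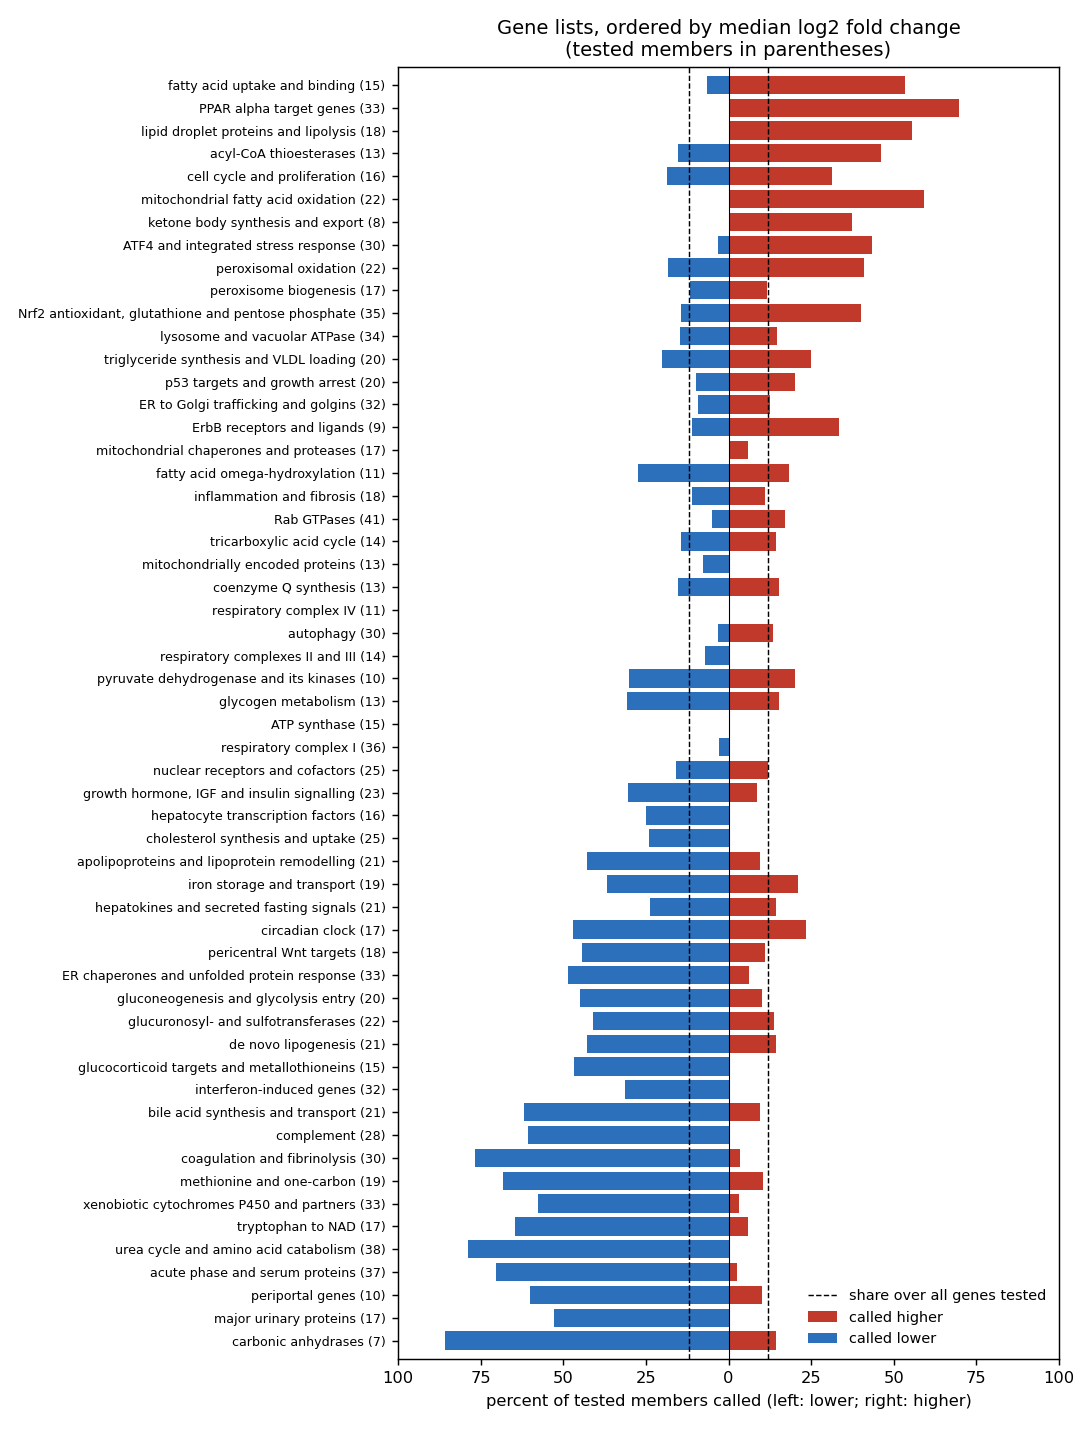
Percent of the tested members of each gene list called higher (right) or lower (left) in Cpt2 L-/- livers, 1 row per list in the order of the list medians, with the shares over all genes tested (11.9% each way) as dashed lines. Pparα targets have 23 of 33 members on the right and 0 on the left, and urea cycle and amino acid catabolism has 30 of 38 on the left.

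Targets of the transcription factor Atf4, which responds to amino acid shortage and mitochondrial stress, were higher at 13 and lower at 1 of 30. Nupr1, a stress-induced chromatin protein whose promoter is shown above, stood at 12.7, 19.8, 26.6 and 15.6 CPM in the Cpt2 L-/- livers and 0.1798, 1.41, 1.01 and 0.386 CPM in the ff;ff livers (log2 fold change 4.58 ± 0.43, adjusted p = 1.8e-05). Psat1, an enzyme of serine synthesis, stood at 4.93, 11.8, 7.82 and 7.37 CPM in the Cpt2 L-/- livers and 0.2697, 0.367, 0.504 and 0.0644 CPM in the ff;ff livers (log2 fold change 4.70 ± 0.44, adjusted p = 1.2e-05). Trib3, a pseudokinase induced by Atf4, stood at 35.9, 28.8, 33.3 and 23.5 CPM in the Cpt2 L-/- livers and 4.32, 5.503, 16.6 and 7.27 CPM in the ff;ff livers (log2 fold change 1.85 ± 0.36, adjusted p = 0.00388). The groups did not overlap at any of them, and in ff;ff livers Nupr1 and Psat1 had under 1 CPM on average. Mthfd2, a mitochondrial folate enzyme, rose by a log2 fold change of 2.17 ± 0.31. Ddit3, which encodes CHOP, was called at a log2 fold change of 0.82 ± 0.21, a call lost without Cpt2 L-/- liver 4 (0.72).

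Atf3, a stress-induced partner of that family whose promoter is shown above, had 17.8, 16.97, 13.2 and 17.2 CPM in the Cpt2 L-/- livers and 0.1798, 3.61, 3.53 and 2.64 CPM in the ff;ff livers (log2 fold change 2.67 ± 0.47, adjusted p = 0.00225). Atf4 itself was at a log2 fold change of 0.43 ± 0.18 (adjusted p = 0.0952) and called at 0.54 without ff;ff liver 3. Asns, the asparagine synthetase with the searched pattern in its promoter, stood at 3.22, 16.2, 8.73 and 3.52 CPM in the Cpt2 L-/- livers and 11.4, 3.91, 5.83 and 6.37 CPM in the ff;ff livers (log2 fold change 0.21 ± 0.53, adjusted p = 0.812). Its sign rested on Cpt2 L-/- liver 2, without which it was -0.41. Cth, the lyase that makes cysteine, fell from 1435, 703, 1091 and 879 CPM to 146, 155, 105 and 74.8 CPM (log2 fold change -3.09 ± 0.28, adjusted p = 1.2e-05). Among chaperones and proteases of the mitochondrial unfolded protein response, 1 was higher and 0 lower of 17. Hspd1, Hspa9 and Lonp1 were at log2 fold changes of 0.31, 0.15 and 0.03, and Phb, a prohibitin, was the member called higher, at 0.76 ± 0.14.

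Antioxidant, glutathione and pentose phosphate genes were higher at 14 and lower at 5 of 35. Srxn1, which repairs peroxiredoxins, stood at 325, 413, 418 and 386 CPM in the Cpt2 L-/- livers and 58.8, 57.8, 51.96 and 56 CPM in the ff;ff livers (log2 fold change 2.78 ± 0.14, adjusted p = 1.9e-07), without overlap. Pgd, of the pentose phosphate pathway, Gclc, which starts glutathione synthesis, and Nqo1, a quinone reductase, rose by log2 fold changes of 2.05 ± 0.14, 1.47 ± 0.23 and 1.31 ± 0.27. Nfe2l2, which encodes Nrf2, was at a log2 fold change of 0.14 ± 0.17.

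Genes of the respiratory chain were seldom called. Complex I had 0 higher and 1 lower of 36 (median -0.21), complexes II and III 0 and 1 of 14, complex IV 0 and 0 of 11, and ATP synthase 0 and 0 of 15. Without Cpt2 L-/- liver 3 the lower counts were 8 in complex I, 3 in complexes II and III, 1 in complex IV and 3 in ATP synthase, and limma-voom gave 7 in complex I. The called members were Ndufs8 at -0.63 ± 0.16, a call lost without Cpt2 L-/- liver 4 (-0.53), and Sdhb at -0.80 ± 0.17. Of 13 proteins encoded in mitochondrial DNA, mt-Nd3 alone was called, at -2.01 ± 0.29, and mt-Co1 was at 23390 ± 2111 against 26090 ± 7983 CPM. In the list of the tricarboxylic acid cycle, Cs, the citrate synthase, rose by a log2 fold change of 1.13 ± 0.16. Fh1, which makes malate, fell at a log2 fold change of -1.10. Mdh1, also on that list and lower at -0.85, is the cytosolic malate dehydrogenase and not the enzyme of the cycle. Of 13 genes of coenzyme Q synthesis, 2 were higher and 2 lower. Coq4 and Coq7 were higher at log2 fold changes of 1.54 and 0.81, and Coq8a was lower at a log2 fold change of -1.77 ± 0.14.

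Genes of proteins that hepatocytes secrete into plasma were lower across several lists. Alb stood at 35520, 28390, 36330 and 28490 CPM in the Cpt2 L-/- livers and 97110, 82150, 90300 and 71990 CPM in the ff;ff livers (log2 fold change -1.41 ± 0.19, adjusted p = 1.6e-04). Its loss of mean CPM was the largest of all tested genes. Cre was driven by the albumin promoter, and Alb took 4.38 to 5.46% of counts in DKO livers and 4.81 to 6.30% in Rab30 L-/- livers, which also carry this Cre. It took 7.5 to 9.78% in livers with a whole-body Rab30 knockout and 7.46 to 9.56% in their wild-type controls, which do not. The part of Cre in the level of Alb was not tested. Of 37 acute phase and serum proteins, 1 was higher and 26 were lower (median -1.18). Serpina6, the corticosteroid-binding globulin, stood at 7.11, 2.97, 4.33 and 3.91 CPM in the Cpt2 L-/- livers and 90.2, 89.5, 20.1 and 101 CPM in the ff;ff livers (log2 fold change -4.04 ± 0.54, adjusted p = 8.9e-04). Saa4, a constitutive serum amyloid, fell from 246, 199, 169 and 217 CPM to 13.6, 7.61, 11.2 and 7.69 CPM (log2 fold change -4.38 ± 0.22, adjusted p = 1.9e-07). Serpina7, which binds thyroid hormone, was the member that rose, at 2.60 ± 0.48. Saa1, the acute phase amyloid, stood at 1.18, 4.97, 12.2 and 5.96 CPM in the Cpt2 L-/- livers and 55.2, 20.9, 13.2 and 383 CPM in the ff;ff livers and was not called, with a wide spread in the controls (log2 fold change -4.28 ± 1.39, adjusted p = 0.0728), and at -2.29 without ff;ff liver 4.

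Coagulation and fibrinolysis genes were lower at 23 and higher at 1 of 30, and complement genes lower at 17 and higher at 0 of 28. Serpind1, the thrombin inhibitor heparin cofactor II, stood at 96.6, 98.3, 64.4 and 44.3 CPM in the Cpt2 L-/- livers and 733, 504, 539 and 545 CPM in the ff;ff livers (log2 fold change -2.93 ± 0.25, adjusted p = 7.4e-06). Proz, protein Z, and F11, a clotting factor, fell at log2 fold changes of -2.27 ± 0.15 and -1.75 ± 0.20. Mbl2, which starts the lectin pathway, and C9, of the membrane attack complex, fell at log2 fold changes of -2.32 ± 0.20 and -1.84 ± 0.28. C3, the central complement protein, was called at a log2 fold change of -0.75 ± 0.22, a call lost without ff;ff liver 4 (-0.64) or Cpt2 L-/- liver 2 (-0.73) or 3 (-0.64).

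Major urinary proteins, pheromone carriers under growth hormone control, were lower at 9 of 17 (median -1.81), at 5 without the filter on low counts and at 2 in the fit of all 24 libraries. They took 0.493 to 1.21% of counts in Cpt2 L-/- livers and 1.48 to 3.69% in ff;ff livers. Mup20, named darcin, stood at 261, 723, 693 and 485 CPM in the Cpt2 L-/- livers and 3531, 1097, 1548 and 1402 CPM in the ff;ff livers (log2 fold change -1.81 ± 0.42, adjusted p = 0.0115). The groups did not overlap, but the calls at Mup7, Mup11, Mup14 and Mup20 were lost in the fit of all 24 libraries, and those at Mup3, Mup14 and Mup20 without the filter on low counts. The call at Mup14 was also lost in limma-voom and without ff;ff liver 1 or 4 or any 1 of the Cpt2 L-/- livers (log2 fold changes of -3.29 to -3.88). These genes are near-identical copies, so reads may have been split among them. Of the growth hormone, IGF and insulin list, 2 were higher and 7 lower of 23. Ghr, the growth hormone receptor, and Igf1, its main hepatic product, fell at log2 fold changes of -1.15 ± 0.27 and -0.86 ± 0.21. Socs2, a growth hormone target, was at a log2 fold change of 0.21 ± 0.53, and at 0.82 without ff;ff liver 3. Insr and Irs2, which carry the insulin signal, were at log2 fold changes of -0.31 and -0.46 and not called, and the sign of Irs2 turned without ff;ff liver 3 (0.48).

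ER chaperones and unfolded protein response genes were lower at 16 and higher at 2 of 33 (median -0.51). Edem1, of ER-associated degradation, fell at a log2 fold change of -1.28 ± 0.14, and Sdf2l1, a chaperone partner, was called at a log2 fold change of -1.55 ± 0.34, a call lost in the 24-library fit. Hspa5, the chaperone BiP, was at a log2 fold change of -0.55 ± 0.22 (adjusted p = 0.0833), and Xbp1, the factor of the response, at 0.17 ± 0.14. Eif2ak3, the ER stress kinase PERK that lies upstream of Atf4, rose by a log2 fold change of 1.41 ± 0.16. In ER to Golgi trafficking 4 were higher and 3 lower of 32, with 2 higher without ff;ff liver 2 or 4 and 12 in limma-voom. The share called there, 21.9%, was near the 23.8% of all genes tested. Copa and Sec24d, coat proteins of the COPI and COPII vesicles, rose by log2 fold changes of 0.74 and 0.67, and the cargo lectins Lman1 and Lman2 fell at log2 fold changes of -0.63 and -0.69.

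Rab GTPases, which mark and steer membranes, were higher at 7 and lower at 2 of 41 (median 0.01). Among members at a mean of at least 5 CPM in either group, the largest log2 fold changes without overlap beside Rab30 were at Rab34, 1.78 ± 0.20, and Rab36, 1.56 ± 0.18. Lysosomal genes were split 5 higher to 5 lower of 34, with the protease Ctsc at -1.76 ± 0.29. The higher count was 3 without ff;ff liver 2 or Cpt2 L-/- liver 4, 8 in the 24-library fit and 11 in limma-voom, and the lower count was 8 in limma-voom and by DESeq2's Wald test. Of 30 autophagy genes, 4 were higher and 1 was lower. Sqstm1, the cargo receptor p62 and also an Nrf2 target, stood at 1149, 972, 1321 and 1114 CPM in the Cpt2 L-/- livers and 349, 519, 667 and 456 CPM in the ff;ff livers (log2 fold change 1.19 ± 0.20, adjusted p = 8.0e-04), and Map1lc3b, which encodes LC3B, was at 194 ± 20.2 against 194 ± 23.7 CPM.

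Xenobiotic cytochromes P450 and their partners were lower at 19 and higher at 1 of 33 (median -0.93). Cyp3a11, the main drug-metabolising member in mouse liver, stood at 629.7, 411, 603 and 462 CPM in the Cpt2 L-/- livers and 6533, 4687, 4569 and 3992 CPM in the ff;ff livers (log2 fold change -3.23 ± 0.22, adjusted p = 1.6e-06). Cyp2c70, which makes muricholic acids, stood at 1.45, 2.32, 5.37 and 1.47 CPM in the Cpt2 L-/- livers and 55.4, 16.8, 99.1 and 32.1 CPM in the ff;ff livers (log2 fold change -4.25 ± 0.70, adjusted p = 0.00361), and at -4.86 without Cpt2 L-/- liver 3. Cyp2c39 was called at a log2 fold change of -4.86 ± 0.94 but not in limma-voom. Cyp2e1, the ethanol-oxidising enzyme, was at 8740 ± 1773 against 12730 ± 2190 CPM and not called, though it was called at -0.66 without Cpt2 L-/- liver 1. Nr1i3, the receptor CAR that drives such genes, was called higher at a log2 fold change of 1.12 ± 0.29, a call lost without the filter on low counts. Cyp2b10, its usual target, was at a log2 fold change of -2.03 ± 1.02 (adjusted p = 0.209), and at -0.42 without ff;ff liver 3.

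Conjugating enzymes were lower at 9 and higher at 3 of 22. The sulfotransferases Sult1d1, Sult5a1 and Sult1a1 fell at log2 fold changes of -2.94 ± 0.47, -2.92 ± 0.42 and -2.31 ± 0.36. Ugt1a1, which conjugates bilirubin, was at a log2 fold change of 0.43 ± 0.16 (adjusted p = 0.0665), and was called at 0.49 without ff;ff liver 3. Of 7 carbonic anhydrases 6 were lower and 1 higher. Car3, abundant in male liver, had a log2 fold change of -4.04 ± 0.78, with 15.1, 22.5, 22.3 and 9.805 CPM in the Cpt2 L-/- livers and 284, 674, 88.95 and 98.99 CPM in the ff;ff livers, and of -3.17 without ff;ff liver 2. Car14, a membrane-bound form, fell at a log2 fold change of -3.31 ± 0.23, and Car5a, which supplies bicarbonate in mitochondria, at -3.86 ± 0.36.

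Hepatocyte transcription factors were called lower at 4 of 16 and higher at none, with 2 lower without ff;ff liver 4 or Cpt2 L-/- liver 3 and 1 without Cpt2 L-/- liver 4. Hnf4a, an identity factor of hepatocytes, was at a log2 fold change of -0.35 ± 0.23 (adjusted p = 0.301). Foxo1, the insulin-regulated factor, fell at a log2 fold change of -1.02 ± 0.17. Cebpa was called at a log2 fold change of -0.54 ± 0.17 but lost its call without ff;ff liver 4 (-0.42) or Cpt2 L-/- liver 2, 3 or 4 (-0.48 to -0.56) and in the fit of all 24 libraries. Pparg, the adipogenic receptor, rose from 8.001, 8.99, 5.11 and 9.65 CPM to 25.1, 15.7, 23.4 and 19.6 CPM (log2 fold change 1.40 ± 0.22, adjusted p = 5.3e-04).

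Genes of the circadian clock were called at 4 higher and 8 lower of 17. Nr1d1, the repressor REV-ERBα, stood at 111, 81.8, 75.3 and 99.02 CPM in the Cpt2 L-/- livers and 18.5, 25.01, 27.4 and 27.4 CPM in the ff;ff livers (log2 fold change 1.90 ± 0.18, adjusted p = 1.2e-05). Nfil3, whose product competes with Dbp at the same elements, stood at 3.03, 4.13, 7.44 and 5.13 CPM in the Cpt2 L-/- livers and 35.2, 35.2, 58.01 and 26.1 CPM in the ff;ff livers (log2 fold change -2.97 ± 0.30, adjusted p = 3.1e-05). Arntl, which encodes BMAL1 and is repressed by Nr1d1, fell at a log2 fold change of -1.31 ± 0.29, and Cry1 at -2.55 ± 0.33. Dbp and Bhlhe41 rose by log2 fold changes of 1.17 ± 0.28 and 2.78 ± 0.24, and Per1 was at a log2 fold change of -0.11 ± 0.28. The study's methods give the same afternoon hour of collection for its fasted mice, and the part of the hour in these values was not tested.

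Genes of both ends of the liver lobule were called lower more often than higher. Periportal genes, which favour glucose and urea synthesis, were lower at 6 and higher at 1 of 10 (median -1.48). Pericentral targets of Wnt signalling were lower at 8 and higher at 2 of 18 (median -0.50). Cyp2f2, a periportal P450, fell at a log2 fold change of -2.13 ± 0.22, and Glul, the pericentral glutamine synthetase, at -1.58 ± 0.19. Slc1a2, the glutamate transporter of the same cells, stood at 39.9, 62.7, 68.7 and 53.1 CPM in the Cpt2 L-/- livers and 339, 299, 353 and 282 CPM in the ff;ff livers (log2 fold change -2.50 ± 0.18, adjusted p = 2.0e-06). Axin2, a direct Wnt target, rose by a log2 fold change of 1.79 ± 0.22.

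Glucocorticoid targets and metallothioneins were lower at 7 of 15 and higher at none. Tsc22d3, which encodes GILZ, stood at 26.7, 48.4, 46.04 and 39.1 CPM in the Cpt2 L-/- livers and 220.2, 217, 271 and 192 CPM in the ff;ff livers (log2 fold change -2.49 ± 0.20, adjusted p = 3.3e-06), and Fkbp5, another receptor target, at 119, 167, 111 and 89.3 CPM in the Cpt2 L-/- livers and 249.7, 303, 500.2 and 319 CPM in the ff;ff livers (log2 fold change -1.49 ± 0.24, adjusted p = 6.0e-04). Both separated the groups. Among iron genes 4 were higher and 7 lower of 19, with 2 higher without ff;ff liver 2 or Cpt2 L-/- liver 3 and 1 without Cpt2 L-/- liver 4. Hamp, the iron hormone hepcidin, fell at a log2 fold change of -0.99 ± 0.20, and Trf, the plasma iron carrier transferrin, was called at a log2 fold change of -1.52 ± 0.38, a call lost without the filter on low counts. Id1, a target of BMP signalling like Hamp, rose by a log2 fold change of 1.32 ± 0.29.

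Of the ErbB list, Egfr, the main receptor of hepatocytes for epidermal growth factor, stood at 169, 148, 157 and 134 CPM in the Cpt2 L-/- livers and 453, 194, 671 and 299 CPM in the ff;ff livers (log2 fold change -1.41 ± 0.31, adjusted p = 0.00664), and its ligand gene Tgfa rose by a log2 fold change of 0.93 ± 0.15. Interferon-induced genes were lower at 10 and higher at 0 of 32 (median -0.74). The lower count was 19 without ff;ff liver 3, 6 without ff;ff liver 4, and 4, 6 and 6 without Cpt2 L-/- liver 1, 2 or 3. Mx2 and Irf7, an antiviral GTPase and a factor of the response, fell at log2 fold changes of -1.89 ± 0.26 and -1.16 ± 0.30, and Ifit1 was called at a log2 fold change of -1.62 ± 0.44, a call lost without Cpt2 L-/- liver 1 (-1.54) or 2 (-1.55). The p53 and growth arrest list held 4 higher and 2 lower of 20, or 2 higher with at least 10 counts in every library. Bax, which permeabilises mitochondria, rose by a log2 fold change of 0.90 ± 0.20, and Cdkn1a, which encodes p21, was at a log2 fold change of -0.02 ± 0.47. Mki67 and Top2a, markers of dividing cells, were under the minimum of counts and not tested.

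Markers of cell types were summed in each library. The summed level of 6 hepatocyte markers was 46840 to 55280 CPM in Cpt2 L-/- livers and 98760 to 134000 CPM in ff;ff livers, with 4 of 6 lower. Alb made up most of that sum, at a mean of 32180 and 85390 CPM, and Apoa1 and Cps1 were not called. Of 6 stellate cell markers none was called (266.0 to 286.8 against 148.1 to 277.9 CPM), and of 6 endothelial markers 1 was lower (197.9 to 231.1 against 198.7 to 263.0 CPM). Of 6 Kupffer cell markers, Clec4f, Vsig4 and Timd4 were lower (107.4 to 159.1 against 133.3 to 247.2 CPM). Of 4 markers of monocyte-derived macrophages, Gpnmb alone was called, and it rose, while the other 3 had log2 fold changes below 0 and were not called (median of the 4, -0.24). The summed level of the list was 32.78 to 50.24 against 10.08 to 28.41 CPM, with Gpnmb itself at a mean of 26.3 and 0.38 CPM. The 3 Kupffer genes were named after their values were seen. Markers of neutrophils, T and NK cells and B cells summed to at most 2.895 CPM and were not tested. In the list of inflammation and fibrosis 2 genes were higher and 2 lower of 18 (22.2% called, against 23.8% of all genes tested). Col4a1, of the basement membrane, rose by a log2 fold change of 1.28 ± 0.21, and Col1a1, the fibrillar collagen of scars, was at a log2 fold change of 0.59 ± 0.45. The part of other cell types in the values above was not tested.

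The largest changes of protein-coding genes called without overlap, at a mean of at least 20 CPM in either group, lay partly outside these lists, and larger fold changes were fitted to genes below that level. Elovl7, an elongase of long-chain fatty acids, stood at 19.7, 21.9, 26.8 and 20 CPM in the Cpt2 L-/- livers and 0.539, 0.367, 0.07197 and 0.322 CPM in the ff;ff livers (log2 fold change 6.08 ± 0.32, adjusted p = 1.9e-07). Gpnmb, a membrane glycoprotein of lipid-laden macrophages that other cells can also express, stood at 22.9, 24, 28.1 and 30.1 CPM in the Cpt2 L-/- livers and 0.0899, 0.734, 0.504 and 0.193 CPM in the ff;ff livers (log2 fold change 6.01 ± 0.34, adjusted p = 3.0e-07). Sema3b, a secreted semaphorin, rose by a log2 fold change of 5.06 ± 0.28, Ly6d, a surface protein, by 4.65 ± 0.60, and Tubb2a, a β-tubulin, by 3.93 ± 0.33. None of these overlapped between the groups. Rarres1, a retinoid-induced gene, rose by a log2 fold change of 5.24 ± 0.34. Retsat, a retinol saturase under Pparα control, gained many counts at a smaller fold, 1.15 ± 0.17.

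On the lower side, Fam107a, an actin-bundling protein, stood at 0.132, 0.194, 0.259 and 0.641 CPM in the Cpt2 L-/- livers and 17.6, 28.7, 162 and 11.7 CPM in the ff;ff livers (log2 fold change -7.45 ± 1.33, adjusted p = 0.00752). Its value was -5.94 without ff;ff liver 3 and -8.08 without Cpt2 L-/- liver 4. Tff3, a trefoil peptide, was at a log2 fold change of -5.38 ± 1.06, and at -6.19 without Cpt2 L-/- liver 3, and was not called in limma-voom. Celsr1, an adhesion receptor of planar polarity, and Slc3a1, a carrier of cystine and basic amino acids, fell at log2 fold changes of -4.08 ± 0.30 and -3.94 ± 0.32.

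Some of the largest values came from genes that are read in some livers and hardly in others of 1 genotype. Such genes, with 3 or fewer counts in at least 1 library and at least 50 in another of the same group anywhere in the series, made up 91 of 13270 tested genes, 36 of 3155 called genes and 20 of the 184 called genes with a change of 8-fold or more. Gpnmb is among them through the Rab30 knockout group, and Nr0b2 through the DKO group. Rpl34 and Rpl21, ribosomal protein genes with many processed copies, were called at log2 fold changes of 5.47 ± 0.28 and 4.10 ± 0.60, with 107, 106, 172 and 136 CPM of Rpl34 in Cpt2 L-/- and 1.53, 3.91, 2.52 and 3.54 CPM in ff;ff livers. Its processed pseudogene Rpl34-ps1, named after its values were seen, went the other way, from 166.5, 105, 116.6 and 146.2 CPM in ff;ff to 3.487, 4.71, 3.362 and 5.191 CPM in Cpt2 L-/- livers. The sum of both was 110.5 to 175.5 CPM in Cpt2 L-/- and 108.9 to 168.0 CPM in ff;ff livers. In the 16-library scale the means of Rpl34 and Rpl34-ps1 were 3.132 and 137.7 CPM in DKO and 60.82 and 65.93 CPM in Rab30 L-/- livers. The sum of the copies thus overlapped between the groups while each copy did not, and the value of Rpl34 is not given as a change of the gene. Rpl21 was at 3.41 without Cpt2 L-/- liver 3, and how its reads were shared with its copies was not given in the sources used here.

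The labels give loss of Cpt2 a second time in the series, in DKO livers, which can be set beside Rab30 L-/- livers (n = 4 each, both with albumin-driven Cre, after the same fast). That comparison shares no library with the one above and has Cre on both sides. Of 13292 genes tested in it, 4081 were called (30.7%). Of the 3155 genes called in Cpt2 L-/- against ff;ff livers, 3082 were tested in both. Of these, 2689 had the same sign (87.2%), 1684 were called in the same direction and 50 in the opposite one. The 1684 genes were 53.4% of the calls of the first comparison and 41.3% of those of the second. Among 1523 called genes with a change of at least 2-fold, 1450 were tested in both, 1292 had the same sign (89.1%) and 903 the same call. Of the 36 genes read in some livers only, 30 were tested in both and 16 had the same sign.

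The Pparα targets were higher at 27 and lower at 0 of 33 in that second comparison (median 1.38), and urea cycle and amino acid genes were lower at 28 and higher at 0 of 38 (median -0.82). Ehhadh was at a log2 fold change of 3.23, Acot2 at 4.31, Plin2 at 2.48 and Cidec at 2.96, and none of these 4 differences between the comparisons was called. Over all genes tested there, 14.9% were called higher and 15.8% lower. Some of the other lists are given by their counts alone. Apolipoproteins were higher at 0 and lower at 14 of 21, complement genes at 1 and 25 of 28, coagulation genes at 0 and 23 of 30 and bile acid genes at 1 and 10 of 20. Apoa4 was thus not called higher in the second comparison, and the difference between the comparisons was not called at it. Atf4 targets were higher and lower at 11 and 1 of 30, interferon-induced genes at 0 and 26 of 32 and major urinary proteins at 0 and 2 of 16. Ketone body genes were higher and lower at 1 and 0 of 8 and the p53 list at 4 and 0 of 19. In both lists 0 genes had the same call in the 2 comparisons. Clock genes were higher and lower at 1 and 3 of 17 and glucocorticoid targets at 0 and 3 of 15, each with 2 same calls. Cyp4a10, which was not called in Cpt2 L-/- against ff;ff livers, was at a log2 fold change of 1.34 (adjusted p = 0.00235). The difference between the comparisons was not called at Cyp4a10.

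**Figure D5:**
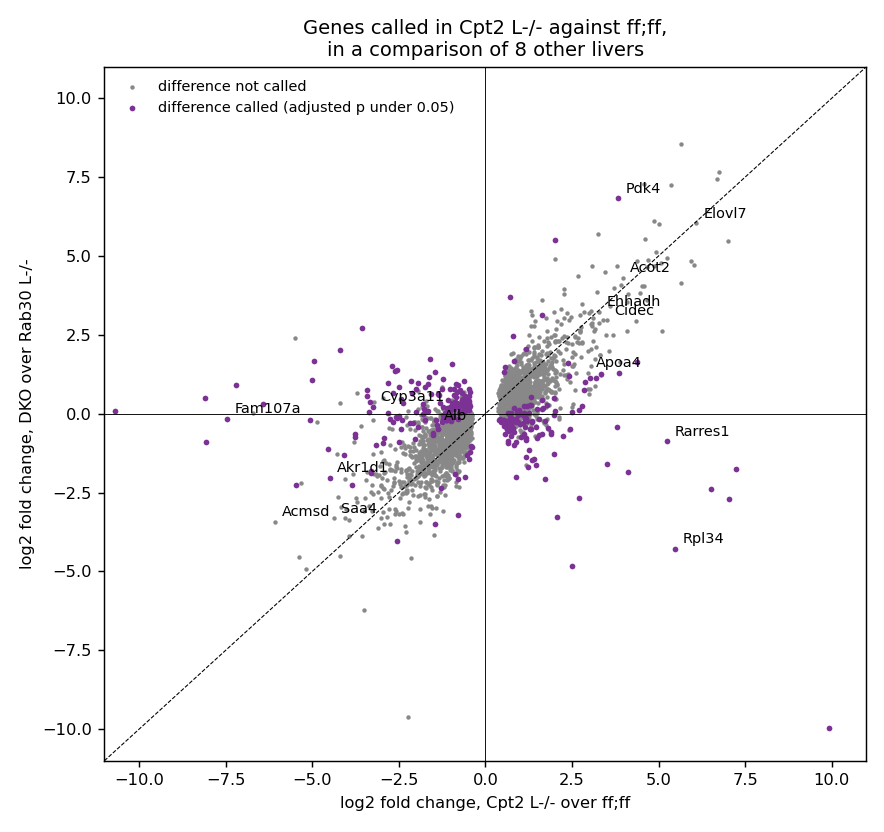
Log2 fold change of genes in Cpt2 L-/- over ff;ff livers (x axis) against that in DKO over Rab30 L-/- livers (y axis), for the 3082 genes called on the x axis and tested in both comparisons, which share no library, with called differences in purple. Of these genes 2689 have the same sign, and Cyp3a11 lies at -3.23 on x and 0.22 on y.

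The difference between the 2 effects was tested with an interaction term over the 16 libraries. Of 14063 genes tested, 571 were called (4.06%), and 308 of them were among the genes called in Cpt2 L-/- against ff;ff livers. The count was 349 without Rab30 L-/- liver 2, 362 without Rab30 L-/- liver 4, 328 without DKO liver 2, and 365, 339 and 300 without Cpt2 L-/- liver 2, 3 or 4. The effect differed at Cpt2 itself, at -0.07 here and -1.07 there (difference 0.99, adjusted p = 0.0191). G6pc fell in the first comparison (-2.76) and was at a log2 fold change of -0.18 in the second (adjusted p of the difference = 0.00291). Cyp3a11 was at log2 fold changes of -3.23 and 0.22 (adjusted p of the difference = 6.7e-05), and Slc1a2 at -2.50 and -0.08 (adjusted p of the difference = 7.0e-04). Pdk4 rose in both, by 3.83 and by 6.83, with a difference of -3.01 (adjusted p = 0.00677).

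Several clock genes were among those whose effect differed. Nr1d1 was at log2 fold changes of 1.90 in Cpt2 L-/- against ff;ff and at -0.58 in DKO against Rab30 L-/- livers (difference 2.47, adjusted p = 7.6e-04). Dbp was at log2 fold changes of 1.17 and -1.36 (difference 2.52, adjusted p = 0.00981), Cry1 at -2.55 and -0.15 (difference -2.41, adjusted p = 0.00446) and Nfil3 at -2.97 and -0.92 (difference -2.06, adjusted p = 0.0256). The glucocorticoid target Tsc22d3 was at log2 fold changes of -2.49 and -0.91 (difference -1.59, adjusted p = 0.00521). Alb was at a log2 fold change of -1.41 in the first comparison and of -0.37 in the second, where it was not called (adjusted p = 0.133, adjusted p of the difference = 0.0215). The comparisons differ in the presence of Rab30, in Cre on the control side and in litters, and these cannot be told apart.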

How the data were processed

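RNA was extracted from mouse liver with TRIzol and RNeasy columns, and libraries were made and sequenced by a service provider. The deposited table holds raw counts of reads per gene, made by the authors before deposit. The submitters' processing notes name HISAT2, DESeq2 and the mouse builds GRCm38 and mm10. The read counter, its annotation and the use of strand were not given in the sources used here. Deposited tables of FPKM, of normalized counts and of the authors' own pairwise comparisons (fold changes, p-values and adjusted p-values) were not used. The table holds 0 other columns of per-sample values, and 0 counts lie on rows that name no gene.

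Groups came from the genotype in the labels. Counts were fitted in R 4.3.3 with edgeR 4.0.16 (filterByExpr, TMM, robust quasi-likelihood fit and test) on the 8 libraries of a comparison, with 13270 genes tested. A call needed a Benjamini-Hochberg adjusted p under 0.05 and a change of at least 1.2-fold, and for the difference between the 2 effects of Cpt2 loss, fitted on 16 libraries, an adjusted p under 0.05. CPM are counts per 1000000 of the library total times its TMM factor. The fits were tested on simulated data with 200 changed genes. Alternatives were DESeq2 1.42.0, its size factors, limma 3.58.1 (voom with quality weights), no filter, 1 fit over 24 libraries, a 2-fold minimum and leaving out each library in turn. Tables and figures were made with Python 3.11.15, pandas 2.3.3, numpy 2.4.6 and matplotlib 3.10.9. The smallest chi-square between libraries of a group was 25.43 per degree of freedom among Cpt2 L-/- and ff;ff livers and 13.39 among DKO and Rab30 L-/- livers, and no pair of libraries agreed within sampling noise.

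Of 1197 symbols in 56 gene lists, 1192 were in the table and 1117 genes were tested. The lists and members were chosen with earlier results of these data known. Named genes are members chosen for their role, the 3 largest called changes without overlap in each list (at least 5 CPM in a group), the 12 largest such changes each way of protein-coding genes (at least 20 CPM), the 8 largest gains and losses of mean CPM, Cpt2, Rab30 and Alb, and the 6 smallest adjusted p of the difference. This gave 315 genes, and those printed were picked from them after their values were seen. Some genes that the rule names are not reported here. Promoters (250 bases before to 50 after the start) are RefSeq sequences of GRCm38.p6.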

Additional observations from a re-analysis of the deposited data

Results flagged for a closer look

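A liver stood apart from the other 3 of its group in 30 of 444 groups checked for the genes named here (6.8%), by a gap to the nearest liver that passed Dixon's critical value for the range of the group. Chance flags about 1 in 20 groups. The number in parentheses is that gap as a share of the range, which is followed by the level in the liver. Cpt2 L-/- liver 1 was apart as the highest for Abcb11 (0.848, 74.1 CPM), Gys2 (0.896, 638 CPM), Insr (0.830, 162 CPM) and Nr1i3 (0.830, 98.2 CPM). Cpt2 L-/- liver 1 was apart as the lowest for Col1a1 (0.838, 1.05 CPM). Cpt2 L-/- liver 2 was apart as the highest for Enho (0.833, 4.001 CPM), Got1 (0.830, 599 CPM), Rrm2 (0.893, 2.58 CPM) and Slc16a6 (0.917, 10.4 CPM). Cpt2 L-/- liver 2 was apart as the lowest for Cd36 (0.902, 188 CPM). Cpt2 L-/- liver 3 was apart as the highest for Vsig4 (0.832, 19.01 CPM). The library of ff;ff liver 1 was apart as the highest for Mup3 (0.830, 12860 CPM), Mup7 (0.832, 12620 CPM) and mt-Nd3 (0.881, 24.6 CPM). The library of ff;ff liver 1 was apart as the lowest for Apoe (0.856, 9072 CPM) and Gdf15 (0.876, 0.719 CPM). The library of ff;ff liver 2 was apart as the highest for Sqle (0.936, 26.96 CPM), Thrsp (0.861, 28.3 CPM) and Vldlr (0.850, 7.03 CPM). The library of ff;ff liver 3 was apart as the highest for Cyp2b10 (0.879, 109 CPM), Dgat1 (0.966, 57.1 CPM), Fam107a (0.887, 162 CPM), Igfbp1 (0.935, 3792 CPM), Irs2 (0.895, 154 CPM), Pdk2 (0.841, 169.8 CPM) and Ppargc1a (0.854, 74.3 CPM). The library of ff;ff liver 3 was apart as the lowest for Nfe2l2 (0.926, 41.96 CPM) and Serpina6 (0.861, 20.1 CPM). The library of ff;ff liver 4 was apart as the highest for Cebpa (0.861, 513 CPM) and Saa1 (0.886, 383 CPM).

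The effect of Cpt2 loss differed between the comparison above and DKO against Rab30 L-/- livers at 28 of the 222 genes named here that were tested for it, by the interaction test over 16 libraries (adjusted p under 0.05). Over all genes it was called at 571 of 14063 (4.06%). The 6 smallest adjusted p of this test were a part of the rule that named genes, so the count over named genes was partly chosen by it. The values are the first log2 fold change less the second, with its standard error. Of genes of lipid, bile acid and sugar metabolism, the difference stood for Akr1d1 at -2.46 ± 0.41, G6pc at -2.58 ± 0.43, Pdk4 at -3.01 ± 0.54, Ppp1r3b at -1.44 ± 0.33 and Cpt2 at 0.99 ± 0.22. Among secreted and detoxifying enzymes and carriers, the difference stood for Alb at -1.04 ± 0.24, Cyp3a11 at -3.45 ± 0.40, Sult1d1 at -2.16 ± 0.56, Car14 at -1.51 ± 0.31, Car5a at -1.61 ± 0.41 and Slc1a2 at -2.43 ± 0.35. Of transcription factors and clock genes, the difference stood for Nr1d1 at 2.47 ± 0.35, Bhlhe41 at 2.54 ± 0.47, Dbp at 2.52 ± 0.48, Cry1 at -2.41 ± 0.42, Nfil3 at -2.06 ± 0.47, Nr1i3 at 1.83 ± 0.39, Foxo1 at -1.24 ± 0.27 and Tsc22d3 at -1.59 ± 0.29. For the Wnt target Axin2 it stood at 1.52 ± 0.35. Of the other genes, it stood for Celsr1 at -2.79 ± 0.45, Fam107a at -7.29 ± 1.52, Rab36 at 2.24 ± 0.26, Rarres1 at 6.11 ± 0.71, Rpl21 at 5.95 ± 1.05, Rpl34 at 9.74 ± 0.38, Rpl34-ps1 at -6.06 ± 0.24 and mt-Nd3 at -2.78 ± 0.35. Rpl34 and Rpl34-ps1 are copies whose values went opposite ways while the range of their sum overlapped between Cpt2 L-/- and ff;ff livers, and Rpl21 has many processed copies.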

How the results depend on the processing

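The 3155 calls of Cpt2 L-/- against ff;ff livers became 1523 with a minimum of 2-fold, 702 higher and 821 lower, as fewer genes meet that fold. Without adjustment of p, a setting chosen after seeing the data, they were 4733, 2372 of them higher. The 571 called differences between the 2 effects of Cpt2 loss became 1080 by DESeq2's Wald test, and 300 to 679 when each library was left out in turn. The share of calls with the same call in DKO against Rab30 L-/- livers (53.4%) ranged from 46.1 to 58.5% in those fits. The causes of these shifts were not tested. DESeq2's size factors put the median log2 fold change of all genes at -0.017. The 310 named genes with a fold change were each refitted under up to 14 settings, as some were not tested at a minimum of 10 counts in every library. The result stood on its side of the thresholds in 4135 refits, and a call was lost in 106 and gained in 80. No called gene turned its sign, but the uncalled Igfbp1, Irs2 and Asns did without 1 liver. In all 36 named genes lost their call under some setting and 33 gained one. Counts of calls in the lists stayed within 1.5 times of the values given in 1393 refits and moved by more in 175, of which 129 were of counts of 2 or fewer. In limma-voom 5 members were higher in de novo lipogenesis and 5 among conjugating enzymes. No paired analysis was possible because the replicate numbers were given within each group and do not link livers across groups. Of 670 tested genes under 1 CPM 14.3% were called, of 3118 from 1 to 5 CPM 17.4%, and of all tested genes 23.8%.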

Other observations

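Genes of cell division and of growth arrest were mixed. Of 16 tested genes of the cell cycle list, 5 were higher and 3 lower. The higher count was 2 or 3 without ff;ff liver 2 or 4, 1 to 3 without any 1 of the Cpt2 L-/- livers and 3 without the filter on low counts. Ccnd1, the cyclin that carries cells into the cycle, was called at a log2 fold change of 1.15 ± 0.32, a call lost without ff;ff liver 1 or Cpt2 L-/- liver 4 and in limma-voom. Rrm2, a subunit of ribonucleotide reductase, stood at 0.724, 2.58, 0.905 and 0.705 CPM in the Cpt2 L-/- livers and 6.38, 7.83, 6.98 and 9.204 CPM in the ff;ff livers (log2 fold change -2.62 ± 0.38, adjusted p = 3.0e-04), and at -3.28 without Cpt2 L-/- liver 2. Gadd45g, a growth arrest gene, was at 12.2, 25.4, 19.1 and 18.97 CPM in the Cpt2 L-/- livers and 73.3, 59.8, 186 and 47.2 CPM in the ff;ff livers (log2 fold change -2.27 ± 0.45, adjusted p = 0.00625), and at -1.67 without ff;ff liver 3.

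Markers of bile duct cells were at 9.808 to 23.99 CPM summed in Cpt2 L-/- livers and 15.83 to 32.81 CPM in ff;ff livers, with 1 of 4 tested called lower. Mogat1, an acyltransferase of monoacylglycerol under Pparγ control in fatty liver, stood at 2.43, 2.06, 3.49 and 2.37 CPM in the Cpt2 L-/- livers and 0, 0.978, 0.7197 and 0.193 CPM in the ff;ff livers (log2 fold change 2.37 ± 0.56, adjusted p = 0.00832), and its log2 fold change was 2.999 without ff;ff liver 2. Gpam, the mitochondrial acyltransferase of triglyceride synthesis, was at 242 ± 72.4 against 152 ± 48.4 CPM (log2 fold change 0.67 ± 0.26, adjusted p = 0.083).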
